A study of Mus musculus with 10 samples.

Results

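The 41 genes described here encode proteins that carry out mitosis: the cyclins and kinases that start it, the kinetochore and the spindle, the condensin complex, the chromosomal passenger complex and the machinery of cytokinesis. They were chosen by name, with earlier results of these data known, and all 41 were found among the 55401 genes of the deposited table. RNA-seq had been performed on limb muscle of wild-type (WT) ICR mouse foetuses at embryonic day (ED) 18.5, from which skin and bones had been removed. The GDM group comprised 5 samples from dams that were injected with streptozotocin, a toxin of pancreatic beta cells, at gestational day 6.5 and again at 12.5 to model gestational diabetes mellitus. The CTR group comprised 5 samples from dams that received the buffer alone. The labels call each sample a mixture of cells and give neither the litter nor the sex of a foetus. A p here therefore speaks of variation from sample to sample, not from dam to dam. The study reports its RNA-seq under a heading on male foetal muscle, and its RNA-seq methods do not state the sex.

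A cell that enters mitosis activates CDK1 through cyclin B, condenses its chromosomes and attaches them by their kinetochores to the microtubules of the spindle. The spindle checkpoint holds back the anaphase-promoting complex (APC/C) until every kinetochore is attached, and cytokinesis then separates the daughter cells. Most of these genes are transcribed late in the cell cycle and are silent in resting cells. In foetal limb muscle, myoblasts and the cells of connective tissue and vessels still divide, whereas the nuclei of the muscle fibres have left the cell cycle for good.

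Many promoters of such genes share a short element, the cell cycle genes homology region (CHR), which lies close to the transcript start and is bound by the MuvB core of the DREAM complex in resting cells and of the MYBL2 and FOXM1 complexes in dividing cells. CCAAT boxes, bound by NF-Y, are often found upstream of it. RefSeq promoters (GRCm38.p6) were available for 35 of the 41 genes, in 37 windows of 300 bases that began 250 bases before the transcript start. The windows printed here cover the 120 bases before the start and the 30 bases from it, 5′ to 3′ on the strand of the gene, for the member with the highest mean level among those with both elements in this stretch, in 8 of the 10 roles, and, for contrast, for Birc5, which held neither element. Capitals mark the CHR (TTTGAA or TTCGAA) and the CCAAT box (CCAAT), each searched on both strands, so that TTCAAA and ATTGG are the same elements on the other strand. In Cdca8 the CHR and a CCAAT box overlap by 1 base and are printed as 1 run of capitals.
Ccnb2: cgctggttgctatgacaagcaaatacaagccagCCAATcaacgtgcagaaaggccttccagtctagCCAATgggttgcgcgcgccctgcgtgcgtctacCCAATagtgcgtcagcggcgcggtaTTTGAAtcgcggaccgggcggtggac
Ube2c: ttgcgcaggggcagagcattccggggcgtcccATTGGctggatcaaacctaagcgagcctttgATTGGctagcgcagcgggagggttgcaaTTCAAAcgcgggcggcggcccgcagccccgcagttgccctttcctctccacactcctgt
Bub1: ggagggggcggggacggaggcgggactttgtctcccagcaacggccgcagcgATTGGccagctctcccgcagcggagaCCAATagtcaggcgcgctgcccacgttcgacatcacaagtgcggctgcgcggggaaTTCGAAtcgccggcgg
Cenpa: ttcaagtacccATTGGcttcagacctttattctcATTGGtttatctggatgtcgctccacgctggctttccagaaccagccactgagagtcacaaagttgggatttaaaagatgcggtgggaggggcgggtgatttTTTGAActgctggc
Cdca8: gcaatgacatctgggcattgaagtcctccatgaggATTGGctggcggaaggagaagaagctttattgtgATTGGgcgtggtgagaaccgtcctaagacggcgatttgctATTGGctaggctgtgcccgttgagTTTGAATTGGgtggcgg
Kif11: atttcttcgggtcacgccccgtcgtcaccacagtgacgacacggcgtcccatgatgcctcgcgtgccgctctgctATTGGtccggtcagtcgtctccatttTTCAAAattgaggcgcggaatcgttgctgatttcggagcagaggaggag
Top2a: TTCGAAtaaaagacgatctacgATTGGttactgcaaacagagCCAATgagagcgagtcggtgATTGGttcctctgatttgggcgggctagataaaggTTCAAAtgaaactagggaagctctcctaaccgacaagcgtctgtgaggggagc
Racgap1: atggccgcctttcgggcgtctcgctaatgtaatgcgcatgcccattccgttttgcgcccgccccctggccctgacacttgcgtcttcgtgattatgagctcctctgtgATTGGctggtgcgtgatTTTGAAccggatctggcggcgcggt
Birc5: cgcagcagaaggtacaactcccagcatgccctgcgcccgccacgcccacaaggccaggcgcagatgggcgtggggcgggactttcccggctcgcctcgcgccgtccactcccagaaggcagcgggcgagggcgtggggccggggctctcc
The windows lie at chr9:70421525-70421674 (Ccnb2, minus), chr2:164769809-164769958 (Ube2c, plus), chr2:127831830-127831979 (Bub1, minus), chr5:30666766-30666915 (Cenpa, plus), chr4:124936888-124937037 (Cdca8, minus), chr19:37376262-37376411 (Kif11, plus), chr11:99024160-99024309 (Top2a, minus), chr15:99651627-99651776 (Racgap1, minus) and chr11:117849117-117849266 (Birc5, plus).

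A CHR was found in 31 of the 37 promoters (83.8%), against 19.2% of all 32851 RefSeq promoters. A CCAAT box was found in 28 (75.7%, against 37.4% of all promoters), and both elements in 26 (70.3%, against 7.52%). In 27 genes a CHR lay within 50 bases of the transcript start on either side. Ccnb1, Cenpe, Ncaph, Nuf2, Nusap1 and Birc5 had no CHR in the window. The TATA box (TATAAA, both strands) was found in 1 promoter (2.7%, against 13.6%), and the E2F words TTTCCCGC, TTTCGCGC, TTTGCCGC and TTTGGCGC, on either strand, were found in 3 (8.11%, against 2.26%). Of 40 promoters of DNA replication genes, which act earlier in the cell cycle, 15.0% held a CHR, 57.5% a CCAAT box and 37.5% an E2F word. These counts describe letters in a window and were not tested, and a match is not a measured binding site.

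**Figure D1:**
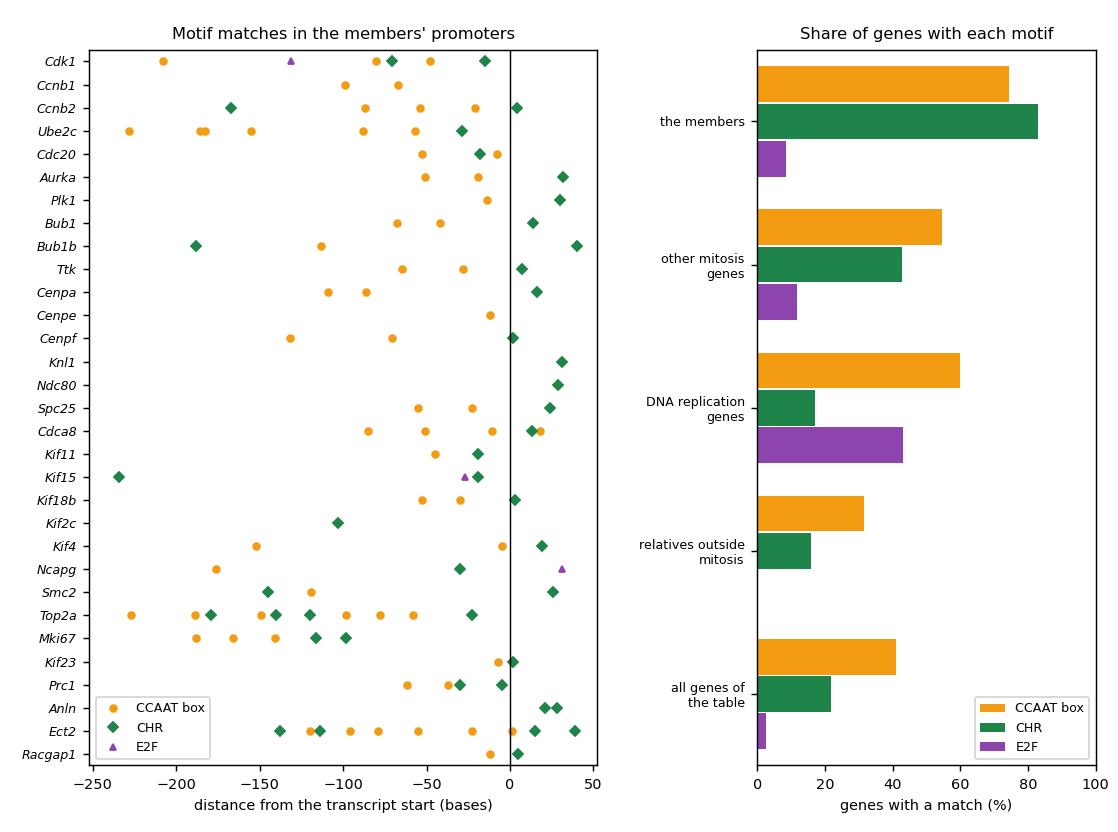
Left, position of each CCAAT box, CHR and E2F word in the promoters of the 31 mitosis genes with at least 1 match, in bases from the transcript start. Right, percent of genes with each element in the members, in other mitosis genes, in DNA replication genes, in relatives used outside mitosis and among all genes of the RefSeq table, with the members highest for CHR and CCAAT box and the DNA replication genes highest for E2F words.

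By the smallest steps of single-transcript genes, GDM libraries held an estimated 17.5 to 20.8 M fragments and CTR libraries 14.4 to 16.5 M, so that group and depth, with any batch that follows depth, cannot be told apart. The share of transcripts encoded by mitochondrial DNA was 9.43 to 12.3% in GDM and 16.3 to 19.0% in CTR libraries, in FPKM (fragments per kilobase of transcript and M mapped fragments). Over all 13363 genes that reached 1 FPKM in at least 5 libraries, the median log2 fold change was 0.15. Median ratio scaling, in which a library is divided by its typical ratio to a mean library, moved this median by -0.15, so fold changes are given as deposited and after scaling. They are differences of log2(FPKM + 1), a scale that compresses the differences of weakly expressed genes.

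All 41 mitosis genes were higher in the GDM group at an adjusted p under 0.05 in limma and none was lower, whereas 35.1% of all tested genes were called higher and 10.9% lower. The median log2 fold change of the members was 0.70 (range 0.48 to 1.03). The ratio of the mean FPKM of GDM to that of CTR samples ran between 1.40 and 2.22 with a median of 1.81, and it reached 2 in 10 members. After median ratio scaling, 40 members were higher and none was lower, against 19.9% and 18.6% of all tested genes, and the median was 0.55 (range 0.31 to 0.86) beside 0.01 over all tested genes. Cdc20 was the member that did not pass. In bulk tissue, more dividing cells and more of these RNAs in each dividing cell cannot be told apart.

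The groups were separated in nearly every member. In 40 of 41 genes every GDM library lay above every CTR library, which held for 27.2% of all tested genes, and the exception was Cdc20. No member had every GDM library below every CTR library (7.43% of all tested genes). After scaling the members fully above numbered 37, against 15.3% of all tested genes, those fully below 0, against 13.7%, and Ccnb1, Cdc20, Kif15 and Kif18b overlapped. A two-sided exact permutation test over all splits of 5 and 5 libraries gave its smallest possible p, 0.00794, in 40 members, and the highest p was 0.0159. After scaling the test gave its smallest p in 37 members, and the highest p was 0.0476. Full separation always gives the smallest p, so these numbers repeat the counts of separated members. Knl1 reached the filter on low values through the GDM libraries alone and would have had to differ. Without it, all 40 other members were called higher and 39 of them had every GDM library above every CTR library.

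**Figure D2:**
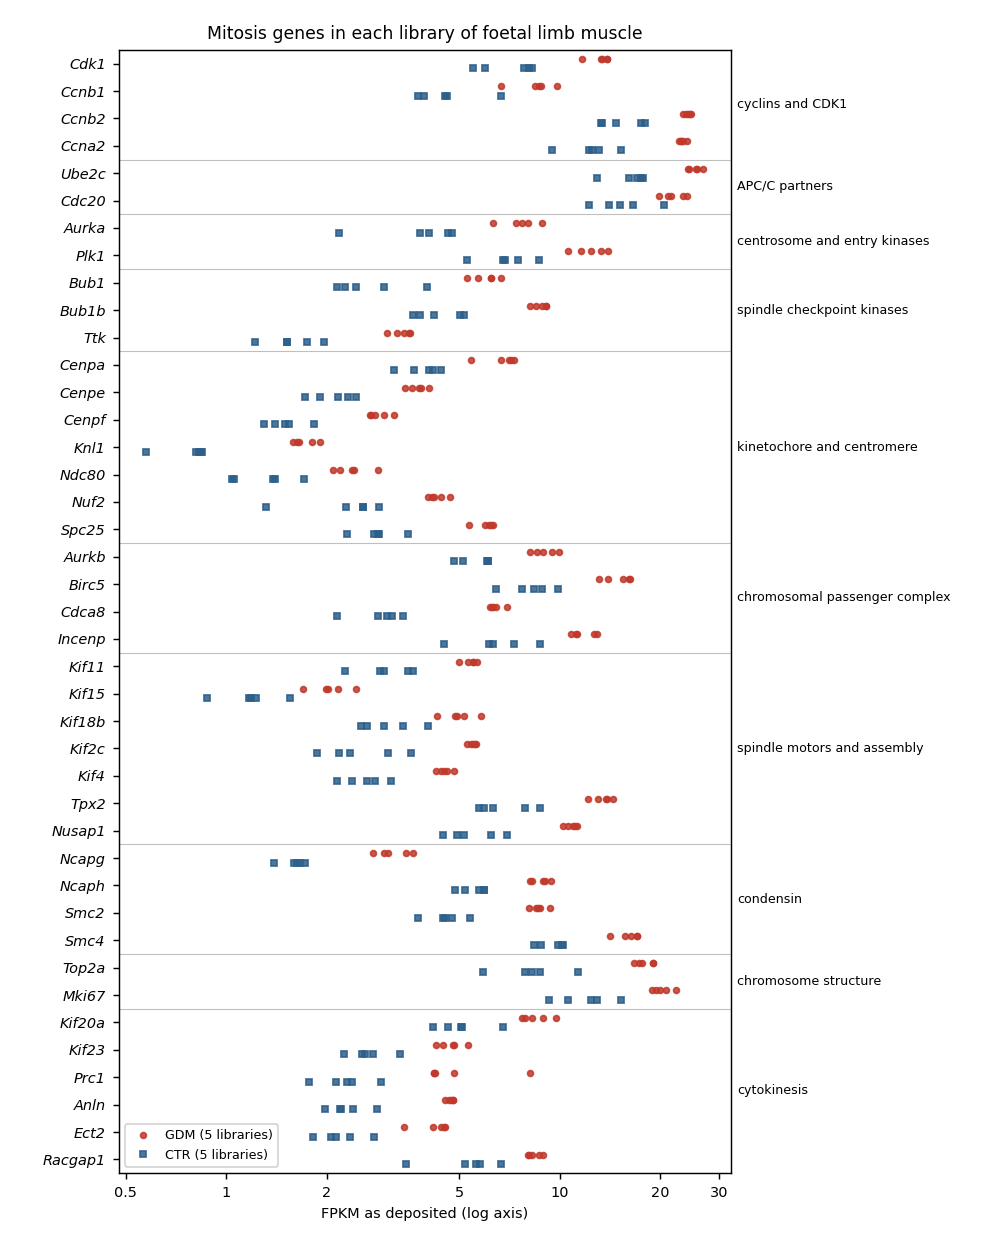
FPKM of each mitosis gene (log axis) in 5 GDM libraries (red circles, upper row of each gene) and 5 CTR libraries (blue squares, lower row), ordered by role. The red points lie to the right of the blue ones in 40 of 41 genes, with an overlap in Cdc20, and the members span 0.578 to 26.9 FPKM.

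Cyclins and CDK1 come first in the order of mitosis, and all 4 genes rose, with log2 fold changes of 0.63 to 0.86 (0.46 to 0.69 after scaling). Ccnb2 (chr9:70407692-70421547, minus strand), which encodes cyclin B2, had 24.7, 24.2, 23.3, 24.6 and 23.9 FPKM in GDM libraries, against 18.0, 13.2, 13.4, 14.8 and 17.5 FPKM in CTR libraries. The GDM libraries were almost alike, and the gap to the highest CTR library was larger than their own range. Ccna2, which encodes cyclin A2, the partner of CDK2 and CDK1 before cyclin B takes over, had 23.4, 22.7, 23.1, 23.1 and 24.0 FPKM in GDM libraries, against 15.2, 9.44, 12.5, 12.2 and 13.1 FPKM in CTR libraries. Its log2 fold change was 0.86 (standard error 0.10, adjusted p = 8.9e-05 in limma), and that of Ccnb2 was 0.63 (standard error 0.09, adjusted p = 0.000276). Cdk1 itself, the kinase that drives entry into mitosis, averaged 13.2 ± 0.892 FPKM in the GDM group and 7.11 ± 1.29 FPKM in the CTR group (mean ± SD of 5 libraries). Ccnb1, which encodes cyclin B1, averaged 8.46 ± 1.13 FPKM in the GDM group and 4.69 ± 1.16 FPKM in the CTR group (mean ± SD of 5 libraries), and its lowest GDM library, at 6.67 FPKM, lay just above CTR 1, at 6.65 FPKM. The ratio of Ccna2 to Ccnb2 was 0.966 ± 0.0318 in GDM and 0.813 ± 0.0860 in CTR libraries (SD, n = 5 each), without overlap.

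The APC/C partners had the lowest median of the 10 roles, a log2 fold change of 0.55 (0.38 after scaling). Ube2c, which encodes the ubiquitin-conjugating enzyme of the APC/C, was the member with the highest level, with 24.3, 25.8, 25.6, 26.9 and 24.3 FPKM in GDM libraries, against 17.0, 12.9, 17.7, 16.1 and 17.5 FPKM in CTR libraries. Its log2 fold change was 0.62 (standard error 0.08, adjusted p = 0.000213 in limma). The exons of Ube2c share 592 bases with Tnnc2 on the opposite strand, a troponin gene of fast muscle fibres at 3342 FPKM in the GDM group and 5683 FPKM in the CTR group, and since the use of strand in counting is not stated, reads of Tnnc2 in the Ube2c value cannot be told apart. Cdc20, which encodes the activator of the APC/C and the target of the spindle checkpoint, had 23.3, 24.1, 21.1, 19.8 and 21.6 FPKM in GDM libraries, against 20.5, 12.2, 14.0, 15.1 and 16.5 FPKM in CTR libraries. CTR 1 lay above the lowest GDM library, and the other CTR libraries lay below all GDM libraries. As deposited, the log2 fold change of Cdc20 was 0.48 (standard error 0.12, adjusted p = 0.00708 in limma). After scaling it was 0.31 with an adjusted p of 0.0567 in limma and an exact permutation p of 0.0476, and without CTR 1 the scaled value was 0.41 with an adjusted p of 0.00693.

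Plk1 and Aurka encode kinases of the centrosome, which mature the spindle poles and trigger entry into mitosis. Plk1 had 14.0, 13.2, 12.4, 11.6 and 10.6 FPKM in GDM libraries, against 8.66, 5.26, 6.84, 6.74 and 7.49 FPKM in CTR libraries. Aurka had 7.39, 8.83, 7.68, 8.01 and 6.29 FPKM in GDM libraries, against 4.63, 2.18, 3.82, 4.06 and 4.75 FPKM in CTR libraries. Both groups were apart in both genes, and CTR 2 was the lowest library each time. The log2 fold change was 0.75 for Plk1 (standard error 0.11, adjusted p = 0.000442 in limma) and 0.85 for Aurka (standard error 0.16, adjusted p = 0.00142).

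The kinases of the spindle checkpoint, Bub1, Bub1b and Ttk, had the highest median among roles with at least 3 members, a log2 fold change of 0.87 (0.71 after scaling). Bub1b, which encodes BubR1, the inhibitor of APC/C with Cdc20, had 8.81, 9.11, 8.49, 8.15 and 9.06 FPKM in GDM libraries, against 5.00, 3.62, 4.20, 3.80 and 5.16 FPKM in CTR libraries. Bub1 (chr2:127801122-127831865, minus strand), the kinase that recruits checkpoint proteins to the kinetochore, had 6.20, 5.69, 6.64, 6.24 and 5.27 FPKM in GDM libraries, against 4.002, 2.15, 2.45, 2.97 and 2.27 FPKM in CTR libraries. Neither gene overlapped between the groups, although CTR 1 stood above the other CTR libraries in Bub1. The log2 fold change was 0.87 for Bub1b (standard error 0.09, adjusted p = 4.8e-05 in limma) and 0.91 for Bub1 (standard error 0.12, adjusted p = 0.000228). Ttk, which encodes the kinase MPS1 at the top of the checkpoint, averaged 3.36 ± 0.224 FPKM in the GDM group and 1.60 ± 0.278 FPKM in the CTR group (mean ± SD of 5 libraries), and its lowest library rested on an estimated 50 fragments.

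All 7 kinetochore and centromere genes rose, with a median log2 fold change of 0.62 (0.50 after scaling). Cenpa (chr5:30666777-30674830, plus strand), the histone H3 variant that marks the centromere, had 7.02, 6.66, 7.27, 7.13 and 5.42 FPKM in GDM libraries, against 4.41, 3.19, 3.66, 4.04 and 4.16 FPKM in CTR libraries. Spc25 and Nuf2 encode subunits of the NDC80 complex, which grips the end of the microtubule. Spc25 had 6.30, 6.11, 6.22, 5.97 and 5.35 FPKM in GDM libraries, against 3.52, 2.30, 2.88, 2.86 and 2.78 FPKM in CTR libraries. Nuf2 had 4.39, 4.68, 4.15, 4.21 and 4.02 FPKM in GDM libraries, against 2.88, 1.32, 2.29, 2.57 and 2.57 FPKM in CTR libraries. The lowest GDM library exceeded the highest CTR library in all 3 genes. The log2 fold changes were 0.65 for Cenpa (standard error 0.09, adjusted p = 0.000286 in limma), 0.86 for Spc25 (standard error 0.08, adjusted p = 4.1e-05) and 0.69 for Nuf2 (standard error 0.13, adjusted p = 0.00134). Ndc80, the subunit that gives the complex its name, lay between 2.10 and 2.86 FPKM in GDM libraries and between 1.04 and 1.71 FPKM in CTR libraries, with a log2 fold change of 0.55. Among the large proteins of the outer kinetochore, the kinesin gene Cenpe averaged 3.75 FPKM in the GDM group and 2.11 FPKM in the CTR group, Cenpf 2.87 FPKM in the GDM group and 1.52 FPKM in the CTR group, and the scaffold gene Knl1, the lowest of all members, 1.72 FPKM in the GDM group and 0.781 FPKM in the CTR group. Their log2 fold changes were 0.61 for Cenpe and Knl1 and 0.62 for Cenpf. On the log2(FPKM + 1) scale such low values are compressed, and by the ratio of means Knl1 was 2.20 times as high in GDM as in CTR samples.

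The 4 genes of the chromosomal passenger complex, which corrects wrong attachments of chromosomes and then moves to the midzone of the spindle, rose with a median log2 fold change of 0.78 (0.62 after scaling). Birc5, which encodes survivin, had 16.1, 16.2, 15.4, 13.9 and 13.1 FPKM in GDM libraries, against 9.86, 6.43, 7.71, 8.37 and 8.84 FPKM in CTR libraries. Incenp, the scaffold of the complex, had 12.7, 12.9, 11.2, 10.8 and 11.3 FPKM in GDM libraries, against 8.70, 4.49, 6.12, 6.31 and 7.29 FPKM in CTR libraries. Cdca8 (chr4:124918465-124939311, minus strand), which encodes borealin, had 6.30, 6.94, 6.42, 6.19 and 6.25 FPKM in GDM libraries, against 3.40, 2.15, 3.04, 2.85 and 3.13 FPKM in CTR libraries. No GDM library came down to the level of a CTR library in these genes, and the Cdca8 values of GDM libraries were close to each other. Cdca8 had the second highest log2 fold change of all members, 0.93 (standard error 0.09, adjusted p = 3.4e-05 in limma), beside 0.79 for Birc5 and 0.77 for Incenp. Aurkb, the kinase of the complex, lay between 8.11 and 9.94 FPKM in GDM libraries and between 4.82 and 6.09 FPKM in CTR libraries, with a log2 fold change of 0.59.

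Among the 7 genes of spindle motors and spindle assembly, the median log2 fold change was 0.67 (0.52 after scaling). Tpx2, which activates Aurora A and starts microtubules near chromatin, had 13.8, 14.4, 13.0, 13.8 and 12.1 FPKM in GDM libraries, against 8.71, 5.71, 5.91, 7.85 and 6.30 FPKM in CTR libraries. Nusap1, which bundles microtubules around chromosomes, had 11.0, 11.1, 10.6, 11.2 and 10.2 FPKM in GDM libraries, against 6.94, 4.46, 4.90, 5.15 and 6.22 FPKM in CTR libraries. Kif11 (chr19:37376403-37421859, plus strand), the Eg5 motor that pushes the poles apart, had 5.50, 5.29, 5.64, 4.99 and 5.49 FPKM in GDM libraries, against 3.64, 2.27, 2.88, 3.50 and 2.97 FPKM in CTR libraries. The groups did not overlap in any of the 3. The log2 fold changes were 0.88 for Tpx2 (standard error 0.11, adjusted p = 0.000117 in limma), 0.87 for Nusap1 (standard error 0.10, adjusted p = 8.3e-05) and 0.67 for Kif11 (standard error 0.09, adjusted p = 0.000279). Kif2c, a kinesin that shortens microtubules at the kinetochore, lay between 5.26 and 5.61 FPKM in GDM libraries and between 1.88 and 3.57 FPKM in CTR libraries, with a log2 fold change of 0.86. Kif4, a kinesin of chromosome arms and midzone, lay between 4.25 and 4.82 FPKM in GDM libraries and between 2.15 and 3.12 FPKM in CTR libraries, with a value of 0.61. Kif15, a motor that can stand in for Kif11, averaged 2.07 ± 0.274 FPKM in the GDM group and 1.20 ± 0.240 FPKM in the CTR group (mean ± SD of 5 libraries) and had, with Cdc20, the lowest log2 fold change of all members, 0.48. Kif18b, a motor at the ends of astral microtubules, had 0.55. In both the groups overlapped after scaling, at 0.37 for Kif15 and 0.41 for Kif18b.

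Condensin coils chromatin into rods for transport. The ATPase genes Smc2 and Smc4, shared by both forms of the complex, and Ncapg and Ncaph, subunits of condensin I, had a median log2 fold change of 0.69 (0.55 after scaling). Smc4 had 17.1, 17.0, 14.2, 16.3 and 15.7 FPKM in GDM libraries, against 10.2, 8.75, 8.36, 9.86 and 10.2 FPKM in CTR libraries. Ncaph had 8.12, 9.43, 9.04, 8.88 and 8.23 FPKM in GDM libraries, against 5.94, 4.84, 5.18, 5.91 and 5.71 FPKM in CTR libraries. All GDM libraries were higher than all CTR libraries in both genes. The log2 fold change was 0.70 for Smc4 (standard error 0.07, adjusted p = 5.7e-05 in limma) and 0.58 for Ncaph (standard error 0.07, adjusted p = 9.9e-05), beside 0.79 for Smc2 and 0.68 for Ncapg. Smc2 lay between 8.08 and 9.33 FPKM in GDM libraries and between 3.77 and 5.38 FPKM in CTR libraries, and Ncapg between 2.76 and 3.63 FPKM in GDM libraries and between 1.39 and 1.72 FPKM in CTR libraries. The summed FPKM of the 4 genes ran between 34.7 and 37.6 FPKM in GDM and between 18.8 and 23.1 FPKM in CTR libraries.

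Top2a and Mki67 act on chromosome structure. Top2a (chr11:98992943-99024189, minus strand), the topoisomerase that untangles sister chromatids, had 17.6, 19.0, 19.0, 17.2 and 16.6 FPKM in GDM libraries, against 11.3, 5.87, 8.28, 8.70 and 7.87 FPKM in CTR libraries. Mki67, which encodes the Ki-67 protein that coats mitotic chromosomes and is used as a marker of cycling cells, had 22.2, 19.9, 20.7, 18.9 and 19.4 FPKM in GDM libraries, against 15.3, 9.30, 10.6, 12.4 and 12.9 FPKM in CTR libraries. In both genes CTR 1 was the highest and CTR 2 the lowest CTR library, and the GDM libraries lay above all of them. Top2a had the highest log2 fold change of the members, 1.03 (standard error 0.13, adjusted p = 0.000151 in limma), and Mki67 had 0.71 (standard error 0.11, adjusted p = 0.000542). The ratio of Top2a to Mki67 was 0.887 ± 0.0628 in GDM and 0.694 ± 0.0734 in CTR libraries (SD, n = 5 each), without overlap. Of 13 ratios between related members, this ratio and that of Ccna2 to Ccnb2 were the ones without overlap and the other 11 overlapped, and they are given as descriptions with no test.

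The 6 genes of cytokinesis rose with a median log2 fold change of 0.67 (0.52 after scaling). Racgap1 (chr15:99620496-99651656, minus strand) and Kif23 encode centralspindlin, which marks the plane of division. Racgap1 had 8.02, 8.90, 8.68, 8.23 and 8.07 FPKM in GDM libraries, against 6.65, 3.45, 5.18, 5.59 and 5.78 FPKM in CTR libraries. Kif23 had 5.31, 4.77, 4.46, 4.26 and 4.83 FPKM in GDM libraries, against 3.31, 2.25, 2.62, 2.56 and 2.76 FPKM in CTR libraries. Kif20a, a kinesin of the midzone, had 9.72, 8.27, 7.67, 7.84 and 8.91 FPKM in GDM libraries, against 6.73, 4.16, 5.08, 4.61 and 5.05 FPKM in CTR libraries. CTR 2 was the lowest and CTR 1 the highest CTR library in all 3, and neither group reached the other. The log2 fold change was 0.59 for Racgap1 (standard error 0.12, adjusted p = 0.00307 in limma), 0.63 for Kif23 (standard error 0.08, adjusted p = 0.000201) and 0.64 for Kif20a (standard error 0.11, adjusted p = 0.000781). The exons of Kif20a share 1271 bases with Cdc23 on the opposite strand, at 7.82 FPKM in the GDM group and 5.68 FPKM in the CTR group. Anln, which encodes anillin, the scaffold of the contractile ring, lay between 4.52 and 4.78 FPKM in GDM libraries and between 1.98 and 2.84 FPKM in CTR libraries, with a log2 fold change of 0.78 and the smallest adjusted p of the members (3.05e-05 in limma). Ect2, the activator of RhoA at the cleavage plane, lay between 3.40 and 4.53 FPKM in GDM libraries and between 1.82 and 2.78 FPKM in CTR libraries, with a log2 fold change of 0.69. Prc1, which bundles the microtubules of the midzone, had a log2 fold change of 0.86, with GDM 3, at 8.13 FPKM, far above the 4.19 to 4.80 FPKM of the other GDM libraries.

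**Figure D3:**
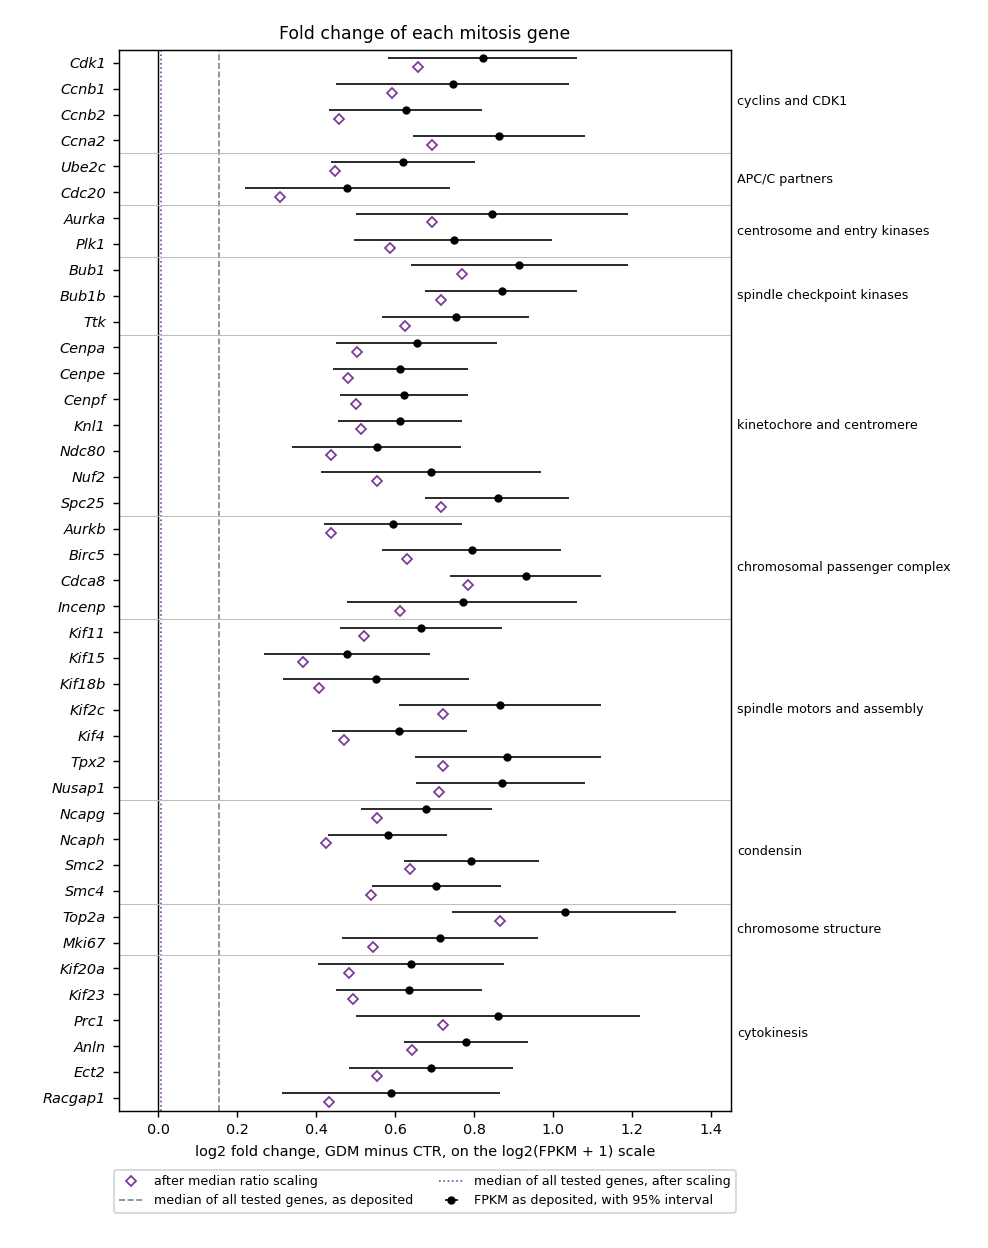
Log2 fold change of each mitosis gene (GDM minus CTR, on the log2(FPKM + 1) scale), as deposited with its 95% interval (black circles) and after median ratio scaling (open diamonds), with dashed and dotted lines at the medians of all tested genes, 0.15 and 0.01. As deposited the members lie between 0.48 and 1.03 and after scaling between 0.31 and 0.86, to the right of both lines.

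The spread between libraries was not the same in both groups. Summed over the 41 genes, the GDM libraries had 395.1, 393.5, 380.9, 373.2 and 363.5 FPKM, against 261.3, 171.2, 203.4, 216.0 and 228.4 FPKM in the CTR libraries. After scaling the GDM libraries lay within 347.4 to 361.8 FPKM, whereas the CTR libraries ran between 178.4 and 274.6 FPKM. CTR 2 was the lowest CTR library in 36 of the 41 genes and CTR 1 the highest in 34. The median coefficient of variation of the members was 6.8% in GDM and 17.4% in CTR samples, and it was larger in the CTR group in 39 members (95.1%), against 62.5% of all tested genes, whose medians were 11.2% in GDM and 13.8% in CTR samples. Without CTR 2 the median coefficient of variation in the CTR group was 12.3% for the members and 12.6% for all tested genes. In 34 members (82.9%) it was then larger than in the GDM group, against 56.6% of all tested genes. Without CTR 2 all 41 members remained higher in the GDM group, with a median log2 fold change of 0.65.

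**Figure D4:**
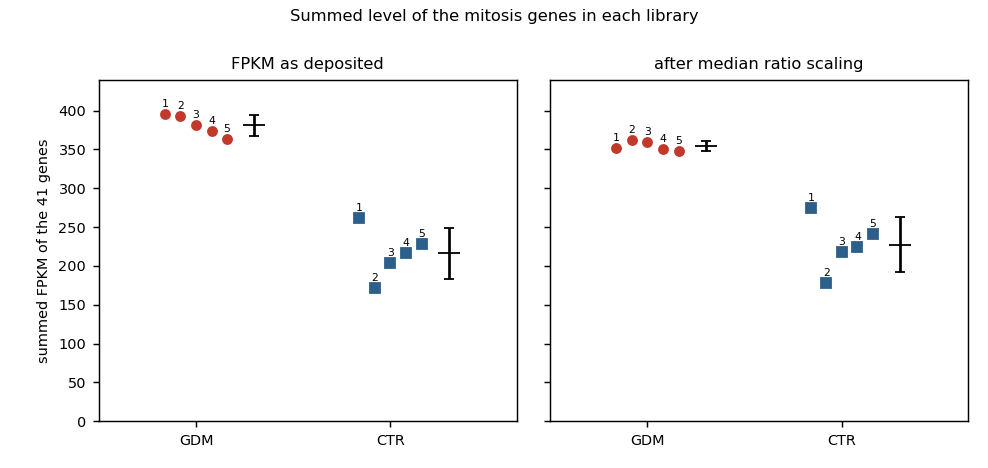
Summed FPKM of the 41 mitosis genes in each library, as deposited (left) and after median ratio scaling (right), with the number of the library above each point and the mean ± SD of 5 libraries beside it. The GDM libraries sit close together above all CTR libraries, and CTR 2 is the lowest.

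Markers of the cell types that limb muscle can hold moved with the group as well. The 12 markers of muscle fibres summed to 19720 to 27380 FPKM in GDM and to 34070 to 40390 FPKM in CTR libraries, with 9 of 12 called lower and 1 higher. Of the markers of muscle stem cells and myoblasts, 4 of 6 tested were higher (sums of 174.4 to 199.8 FPKM in GDM and 127.2 to 161.5 FPKM in CTR libraries). After scaling 3 of the 6 were higher and the sums overlapped (155.3 to 190.9 FPKM in GDM and 132.6 to 173.2 FPKM in CTR libraries). Of those of differentiating myocytes 3 of 4 were higher, as deposited (307.6 to 359.0 FPKM in GDM and 197.3 to 244.2 FPKM in CTR libraries) and after scaling. Of connective tissue and skeleton, the markers that were higher numbered 5 of 5 for tenocytes, 5 of 6 for osteoblasts and 6 of 7 tested for chondrocytes. The same numbers were called after scaling. Chondrocyte markers summed to 22.4 to 49.9 FPKM in GDM and 8.59 to 21.4 FPKM in CTR libraries. After scaling these sums overlapped, at 21.2 to 44.4 FPKM in GDM and 9.21 to 22.2 FPKM in CTR libraries. The sums of osteoblast markers overlapped, at 58.9 to 245.3 FPKM in GDM and 23.7 to 83.8 FPKM in CTR libraries. For fibroblasts, 4 of 9 were higher and 1 was lower, a share of 44.4% near the 35.1% of all tested genes. After scaling 3 of the 9 were higher and 1 was lower. Their sums did not overlap, at 2532 to 3222 FPKM in GDM and 1572 to 2128 FPKM in CTR libraries. After scaling the sums were 2328 to 2959 FPKM in GDM and 1686 to 2250 FPKM in CTR libraries. Of all tested genes, 10.9% were called lower as deposited and 18.6% after scaling. Called lower were 6 of 8 markers of endothelial cells (7 after scaling), 5 of 6 tested of neutrophils (6 after scaling) and 7 of 7 tested of adipocytes. For pericytes and smooth muscle 3 of 6 were lower (5 after scaling, with 1 higher under both). Lower too were 2 of 7 tested of macrophages (3 after scaling) and 2 of 7 tested of Schwann cells (3 after scaling, with 1 higher under both). Among the markers, Sox9, Col9a3 and Mkx passed the filter on low values through the GDM libraries alone, and Plin1 and Cidec through the CTR libraries alone, so that these had to differ. Adipocyte markers summed to 49.8 to 69.1 FPKM in GDM libraries, against 324.8 to 488.8 FPKM in 4 CTR libraries and 1984 FPKM in CTR 2, the library with the lowest mitosis genes. Keratinocyte markers summed to 467.8 FPKM in GDM 1 and 100.6 FPKM in GDM 3, and to 2.51 to 4.38 FPKM in the other 8 libraries. No marker of these lists was at 0 in every library, and the part of each cell type in the higher mitosis genes was not tested.

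Other genes of mitosis rose in part. Of 129 further genes, 122 were tested, of which 91 were higher (74.6%) and none was lower, with a median log2 fold change of 0.47. After scaling 72 were higher (59.0%) and 1 was lower, with a median of 0.33. Of all tested genes, 35.1% were higher as deposited and 19.9% after scaling. Among other genes of kinetochore and centromere, 28 of 34 were higher, led by Ska2, a subunit of the SKA complex that couples kinetochores to microtubules, at 10.8 ± 1.08 FPKM in the GDM group and 4.82 ± 0.574 FPKM in the CTR group (mean ± SD of 5 libraries). Hjurp, the chaperone that deposits CENP-A, had a log2 fold change of 0.93 and Cenpi, a subunit of the inner kinetochore, of 0.61. Cenpk, counted among the 28, passed the filter on low values through the GDM libraries alone and had to differ, and without it 27 of 33 were higher. Of other spindle genes 20 of 25 were higher, or 19 of 24 without Kif24, which also passed through the GDM libraries alone, with values of 0.92 for Hmmr, 0.81 for Ckap2l and 0.77 for Fam83d, whose products bind spindle microtubules. The 5 that did not pass were Haus1, Haus2, Haus4 and Haus7, of the augmin complex, and Tubg1, gamma-tubulin. The 4 other condensin subunits were all higher (median 0.38), with 0.49 for Ncapd2 of condensin I and 0.42 for Ncaph2 and 0.34 for Ncapg2 of condensin II. After scaling 3 of the 4 were higher, with a median of 0.245, and Ncapd3 did not pass (adjusted p = 0.155 in limma).

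The values differed between the remaining lists, whose counts stand beside 35.1% of all tested genes called higher as deposited and 19.9% after scaling. Of other cytokinesis genes 4 of 10 were higher (40.0%), near the share of all tested genes. Their median log2 fold change of 0.17 was close to the 0.15 of all genes. After scaling 3 of the 10 were higher (30.0%), with a median of 0.018. Those that were higher included Arhgef39 (0.97), Kif20b (0.56), a kinesin of late cytokinesis, and Iqgap3 (0.46), whereas Septin7 and Septin9, of the septin filaments, Chmp4b, of the ESCRT machinery, Spast, Mitd1 and Cep55 did not pass. Of cohesin genes 11 of 15 were higher (median 0.40), with 0.74 for Espl1, the separase that opens cohesin, 0.40 for Smc1a and 0.53 for Pds5b. After scaling 8 of the 15 were higher, with a median of 0.233. Of APC/C subunits and regulators 12 of 17 were higher (median 0.34), led by Fbxo5, the inhibitor EMI1, at 0.80, beside 0.41 for Cdc16 and 0.36 for Anapc2. After scaling 6 of these 17 were higher, and Anapc7, a subunit at 8.07 FPKM in the GDM group and 8.08 FPKM in the CTR group, was lower. Of regulators of entry and exit 12 of 17 were higher (median 0.62), with 1.08 for Cks2, the small partner of CDK1, 0.75 for Wee1, its inhibitor, and 0.62 for Cdc25b, its activator. After scaling 11 of the 17 were higher, with a median of 0.463.

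**Figure D5:**
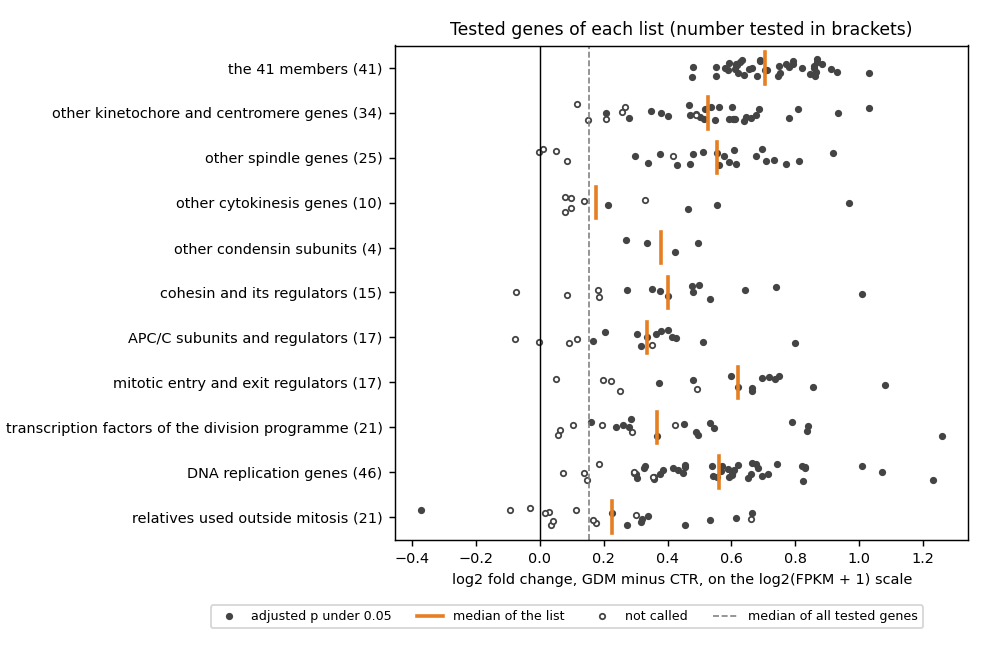
Log2 fold change (GDM minus CTR, on the log2(FPKM + 1) scale, as deposited) of each tested gene in the members and in 10 further lists, filled where the adjusted p was under 0.05, with the median of each list (orange bar) and of all tested genes (dashed line, 0.15). The members have the highest median, 0.70, and the other cytokinesis genes and the relatives used outside mitosis have the lowest, 0.17 and 0.23.

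The transcription factors of the division programme were followed as well, because the CHR and the CCAAT box are bound by some of them. Of 21, 15 were higher (71.4%, against 35.1% of all tested genes) and none was lower, with a median of 0.37. After scaling 9 were higher (42.9%, against 19.9% of all tested genes). E2f1 had a log2 fold change of 0.84, E2f8 of 0.79 and Nfya, a subunit of NF-Y, of 0.84. Foxm1, named here after its values were seen, had 5.31, 4.36, 2.13, 6.98 and 7.01 FPKM in GDM libraries, against 2.99, 0.939, 0.936, 1.59 and 1.19 FPKM in CTR libraries. GDM 3 fell below CTR 1, and the spread within each group was wide. Its log2 fold change was 1.26 (standard error 0.28, adjusted p = 0.00445 in limma) and that of Mybl2 was 0.49. Of the MuvB core, Rbbp4 was called higher (0.24, adjusted p = 0.0103 in limma) but not after scaling (0.07, adjusted p = 0.452), and Lin9, Lin37, Lin52 and Lin54 did not pass.

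Genes of DNA replication rose alongside those of mitosis. Of 46 genes 40 were higher (87.0%, against 35.1% of all tested genes) and none was lower, with a median log2 fold change of 0.56. After scaling 29 were higher (63.0%, against 19.9% of all tested genes), with a median of 0.42. Ccne2, which encodes the cyclin E2 that starts S phase, averaged 7.97 ± 0.450 FPKM in the GDM group and 2.85 ± 0.555 FPKM in the CTR group (mean ± SD of 5 libraries), a log2 fold change of 1.23 that exceeded that of every member. Mcm4, a subunit of the replicative helicase, had 0.82 and Rfc1, of the clamp loader, 0.42. Relatives of the members that work outside mitosis were set beside them: 9 of 21 tested were higher and 1 was lower, with a median of 0.23 (0.07 after scaling). The 42.9% called higher lay near the 35.1% of all tested genes. Top2b, a relative of Top2a that also works outside mitosis, averaged 8.94 ± 0.489 FPKM in the GDM group and 8.74 ± 0.475 FPKM in the CTR group (mean ± SD of 5 libraries). It did not pass, in contrast to the called Top2a, a difference between genes that was not tested. Cdk4, the kinase of G1, had a log2 fold change of 0.61, the transport kinesins Kif3a and Kif3c had 0.53 and 0.45, and Kif1c, another transport kinesin, fell by 0.37 on the log2 scale.

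Some members share sequence with other genes, and their values are less certain. Exons of Ccna2, Cdc20, Cdca8, Plk1, Kif4, Nusap1, Ncapg and Prc1 also overlap genes on the opposite strand, over 53 bases for Cdc20 with Elovl1 and up to 944 bases for Ncapg with Lcorl. Exosc9, opposite Ccna2, was the only one of these partners with a lower mean in the GDM group, at 3.13 FPKM against 3.75 FPKM in the CTR group. All the others had a higher mean there. Elovl1, opposite Cdc20, averaged 17.9 FPKM in the GDM group and 12.7 FPKM in the CTR group. Oip5, opposite Nusap1, averaged 2.91 FPKM in the GDM group and 1.80 FPKM in the CTR group. Ccnb1 and Ccnb2 have processed copies listed at 0.801 and 0.672 FPKM in GDM and at 0.489 and 0.512 FPKM in CTR samples, far under the genes themselves. The part of these overlaps in the values was not tested.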

How the data were processed

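The data are RNA-seq values of foetal limb muscle from 10 libraries (5 GDM, 5 CTR), which were grouped by the treatment given in their labels. The deposited unit is FPKM, given for each gene and library. The authors aligned reads with HISAT2 2.0.4, and the submitters' processing notes list StringTie 1.3.4d, edgeR and DESeq2, with no roles, and the build mm10, whereas the methods give Ensembl v101. Library preparation selected poly(A) RNA and marked the strand with dUTP, but whether counting used the strand is not given in the sources used here. No deposited value is exactly 0, and values at or below 1e-04 FPKM, the value listed for most unexpressed genes, were taken as 0. Its columns of fold change, log2 fold change, p-value and q-value, which hold the comparison of the authors, were not used.

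Genes with at least 1 FPKM in at least 5 libraries (13363 of 55401) entered limma 3.58.1 with its trend and robust options, run under R 4.3.3. The response was log2(FPKM + 1), the contrast was GDM against CTR without covariates, and Benjamini-Hochberg adjustment ran over all tested genes, with a threshold of 0.05. FPKM are no counts, so no count model and no counting interval was used, and the depth was estimated from the smallest values of genes with a single transcript. For single members, an exact permutation test (two-sided) was run too. Median ratio scaling divided each library by the median, over genes above 0 in every library, of its ratio to the geometric mean of the libraries. The tables were read with the R package data.table, version 1.17.8, and Python 3.11.15, pandas 2.3.3, numpy 2.4.6 and matplotlib 3.10.9 were used for counts, motifs and figures. Coordinates are GRCm38, from GENCODE vM21 for genes and RefSeq for promoters. The fit was tested on simulated data in which 200 of 13363 genes were changed, far fewer than were called here. It recovered 58.2% of 1.5-fold, 76.1% of 2-fold and 90.9% of 4-fold changes, and 4 of 154 calls were false.

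Per-library values are given for the members with the highest mean FPKM of each role (3 in roles of 6 or more, otherwise 2), for members not called under a setting, for the 5 members with the largest log2 fold change and for compared pairs. Of each further list, the 3 genes with the smallest adjusted p are named. Foxm1, Mybl2, Top2b, Kif1c, Anapc7 and the genes named because they did not pass, or for their known role, were picked with their values in view. The members, lists and markers were chosen with earlier results of these data known.

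The alternatives were median ratio scaling, quantile normalization, leaving out mitochondrially encoded genes, a pseudocount of 0.1, no filter, a filter of 1 FPKM in every library, limma without trend and robust, a block for the replicate number, and each library left out in turn. Scaling combined with the pseudocount, with the block and with leaving out each library was added after seeing the data.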

Additional observations from a re-analysis of the deposited data

Results flagged for a closer look

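Among 84 groups of 5 libraries checked (each member in the GDM and in the CTR group, and their sums), 4 held a library far from the other 4 by Dixon's ratio at a critical value of 0.71, and chance flags about 1 in 20 groups. Cdk1 had 11.7 FPKM in GDM 5, against 13.3 to 13.9 FPKM in the other GDM libraries. Ccnb1 had 6.65 FPKM in CTR 1, against 3.76 to 4.58 FPKM in the other CTR libraries, and this value nearly closed the gap between the groups. Knl1 had 0.578 FPKM in CTR 2, against 0.812 to 0.845 FPKM in the other CTR libraries. Prc1 had 8.13 FPKM in GDM 3, against 4.19 to 4.80 FPKM in the other GDM libraries. Its antisense neighbour Rccd1 had 1.72 FPKM in GDM 3 and 0.964 to 2.29 FPKM in the other GDM libraries. As deposited, in all 4 genes the GDM libraries stayed above the CTR libraries with these values included.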

How the results depend on the processing

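All 41 members were higher in the GDM group under quantile normalization, without mitochondrially encoded genes, with a pseudocount of 0.1, without a filter and in limma without trend and robust. With 1 FPKM required in every library, Knl1 and Kif15 left the test and 39 of 39 were higher. Over 1218 pairs of member and setting, 1205 kept direction and call, 13 lost the call (12 in Cdc20, 1 in Racgap1) and 0 turned round. The median log2 fold change of the members, 0.70 as deposited, was 0.55 after median ratio scaling, 0.56 after quantile normalization and 0.86 with a pseudocount of 0.1. Over all genes, 4691 higher and 1451 lower calls became 2653 and 2480 after median ratio scaling, 2881 and 2343 after quantile normalization, and 2629 and 2478 after scaling with a pseudocount of 0.1. Leaving out single libraries gave 40 to 41 members higher and a median of 0.65 to 0.75 as deposited, the lowest without CTR 2, and 39 to 41 and 0.50 to 0.62 after scaling. Over all genes, as deposited and after scaling together, it gave 2254 to 4587 higher and 1235 to 2350 lower calls. Knl1 left the test whenever a GDM library was left out. Cdc20 after scaling had adjusted p of 0.00693 to 0.115, and it passed when CTR 1 was left out.

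Over all tested genes, libraries with the same replicate number did not deviate together (correlations of -0.07 to -0.02). Such a check cannot exclude a pairing that moved few genes, so whether the numbers pair the samples is not known. With the replicate number as a block, 41 members were higher, with a median of 0.70, beside 4171 higher and 1269 lower calls over all genes. With the block after scaling, 39 members and 2165 of all genes were higher, with a member median of 0.55, and Cdc20 (adjusted p = 0.0851 in limma) and Racgap1 (0.053) did not pass. By the estimated fragments in the lowest library, depth limits Ttk (50) most, then Aurka, Kif15, Ndc80 and Spc25 (60 each).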
